A study of Mus musculus with 2 samples.

Results

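The heat shock proteins and their DNAJ cochaperones are 72 genes among the 34714 in the expression table. Members were taken by symbol: every gene named Dnaja, Dnajb, Dnajc, Hspa, Hspb or Hsph with a number, plus Hsp90aa1, Hsp90ab1, Hspd1, Hspe1, Hsf1 and Hsf2, leaving out Hspa5 and Hsp90b1. Levels are taken to be FPKM (fragments relative to transcript length and to the size of the library); the table names no unit, and TPM with rows left out cannot be told apart from it. Depth, fragment numbers and counting intervals rest on that reading. One library came from bone marrow-derived macrophages of C57BL/6 mice given the agonistic CD40 antibody FGK45 for 24 h, and the other from such macrophages given IgG for 24 h. The growth medium of both held 20 ng/mL of the macrophage growth factor M-CSF, and the labels name no allele besides the strain. Each group held 1 library, so no difference was set against a spread between cultures and no p-value was computed. Genes are called higher or lower in the anti-CD40 library, and the 95% intervals cover counting error only.

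HSP70 proteins bind exposed hydrophobic stretches of unfolded chains and release them in a cycle driven by ATP. DNAJ proteins deliver the clients and trigger ATP hydrolysis, exchange factors such as the HSP110 proteins reset the cycle, and HSP90 acts later on clients such as kinases and receptors. In mitochondria, a dedicated HSP70 (Hspa9) pulls in new proteins and a chaperonin with its lid (Hspd1 and Hspe1) folds them. After heat or misfolding, HSF1 binds heat shock elements, repeated GAA units in alternating orientation, in the promoters of inducible members.

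Promoters of 6 members are shown because HSF1 acts through heat shock elements. The letters searched for here also occur in many other genes and do not by themselves mark an inducible gene. They come from RefSeq on build GRCm38.p6 and run from 250 bases before to 50 bases after the annotated start, 5′ to 3′ along the gene. Capitals mark an inverted pair of GAA units, spelled GAANNTTC or TTCNNGAA, each of which reads the same on both strands. Hspe1, Dnajb6 and Hsph1 hold both spellings overlapping by 3 bases. Dnaja1 and the stress-inducible Hspa1b hold 1 pair each. Where a member has several windows, the one with the most such pairs is shown. Dnaja1 has 3 windows, and only 1 of them holds such letters. Dnajc19, the member with the largest log2 ratio of FPKM + 1, is shown because its window holds no such letters.
Hspe1, chr1:55087898-55088197, plus strand: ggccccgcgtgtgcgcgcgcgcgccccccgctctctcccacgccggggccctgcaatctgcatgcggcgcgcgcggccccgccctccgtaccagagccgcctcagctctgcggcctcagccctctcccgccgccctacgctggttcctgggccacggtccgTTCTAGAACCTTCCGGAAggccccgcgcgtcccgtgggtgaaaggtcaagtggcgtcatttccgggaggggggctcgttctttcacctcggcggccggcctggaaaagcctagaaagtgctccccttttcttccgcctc
Dnajb6, chr5:29735648-29735947, plus strand: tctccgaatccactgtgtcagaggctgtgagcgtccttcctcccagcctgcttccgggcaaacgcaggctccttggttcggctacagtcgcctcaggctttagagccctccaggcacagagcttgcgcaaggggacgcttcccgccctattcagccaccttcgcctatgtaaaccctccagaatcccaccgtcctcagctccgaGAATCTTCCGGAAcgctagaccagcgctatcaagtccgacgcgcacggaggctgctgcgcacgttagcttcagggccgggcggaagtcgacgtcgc
Hsph1, chr5:149636266-149636565, minus strand: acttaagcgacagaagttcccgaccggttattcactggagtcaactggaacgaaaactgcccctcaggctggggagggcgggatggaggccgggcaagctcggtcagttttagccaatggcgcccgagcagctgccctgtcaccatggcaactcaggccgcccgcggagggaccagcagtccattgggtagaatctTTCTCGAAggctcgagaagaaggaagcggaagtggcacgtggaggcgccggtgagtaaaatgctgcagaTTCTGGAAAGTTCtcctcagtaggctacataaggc
Dnaja1, chr4:40722218-40722517, plus strand: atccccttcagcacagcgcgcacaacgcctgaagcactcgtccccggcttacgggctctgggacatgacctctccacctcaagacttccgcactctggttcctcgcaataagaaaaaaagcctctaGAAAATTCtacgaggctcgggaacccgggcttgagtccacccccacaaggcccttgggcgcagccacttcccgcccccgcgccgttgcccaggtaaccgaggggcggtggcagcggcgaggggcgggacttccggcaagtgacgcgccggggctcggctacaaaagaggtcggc
Hspa1b, chr17:34959189-34959488, minus strand: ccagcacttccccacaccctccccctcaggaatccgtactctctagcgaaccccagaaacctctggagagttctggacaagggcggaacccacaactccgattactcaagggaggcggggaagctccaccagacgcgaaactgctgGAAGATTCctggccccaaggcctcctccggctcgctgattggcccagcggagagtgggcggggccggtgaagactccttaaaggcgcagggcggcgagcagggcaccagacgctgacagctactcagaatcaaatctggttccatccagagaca
Dnajc19, chr3:34081305-34081604, minus strand: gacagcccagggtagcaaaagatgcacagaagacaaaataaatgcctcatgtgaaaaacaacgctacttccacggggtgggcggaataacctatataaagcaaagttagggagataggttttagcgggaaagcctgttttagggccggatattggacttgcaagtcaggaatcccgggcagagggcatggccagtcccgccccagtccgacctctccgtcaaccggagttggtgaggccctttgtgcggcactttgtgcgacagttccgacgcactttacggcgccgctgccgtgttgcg

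A promoter was at hand for 57 of the 72 members. The letters occurred in at least 1 window of 16 of them, 28.1%, against 17.0% of all 27025 genes with a promoter. Of all 32851 promoter windows, 15.1% held them. Dnajb1, an inducible member, had 2 windows, and 0 of them held the letters. Overlapping pairs occurred in 4 members (Hspd1, Hspe1, Hsph1 and Dnajb6), 7.02%, against 0.662% of all genes and 0.603% of all windows. The pairs of Hspe1 span 89 to 72 bases before the start, those of Dnajb6 46 to 34, and that of Dnaja1 124 to 117. In the Hsph1 window shown, the overlapping pairs lie 15 to 27 bases after the start. A further pair of Hsph1 lies 54 to 47 bases before it. Hspd1 is transcribed away from Hspe1. Of the 2 windows of Hspd1, the 1 with the letters shares 285 bases with the window of Hspe1. Hspa1a and Hspa1b windows were identical at 98.7% of positions, and each has its pair 104 to 97 bases before the start. Dnajc3, which encodes a cochaperone of the endoplasmic reticulum, was the 1 member with an ER stress element, found in 0.119% of all windows when both strands were searched. A match of letters is a description and does not show that a factor binds there.

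**Figure D1:**
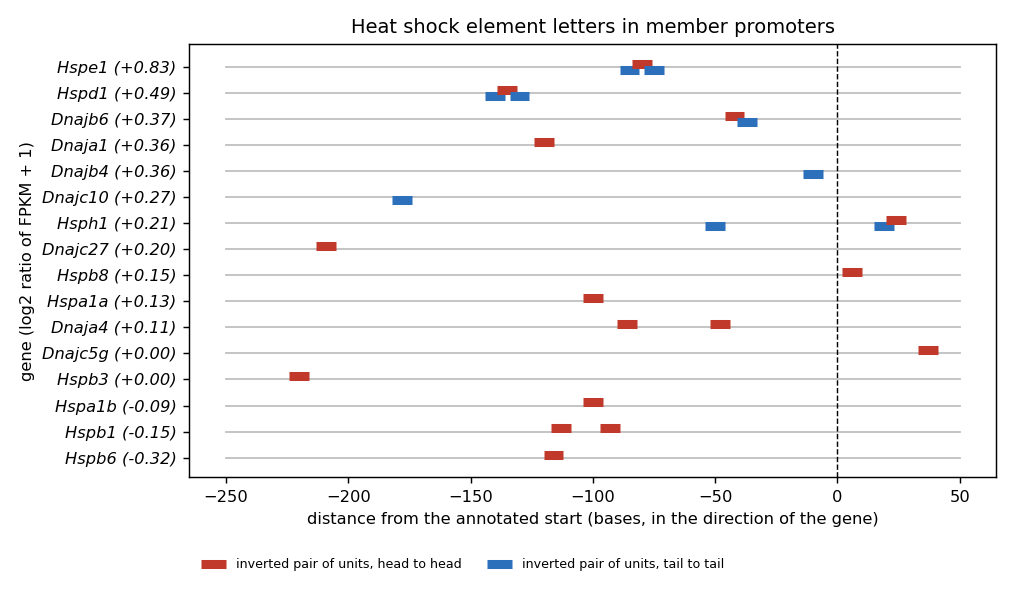
Heat shock element letters in the promoters of the 16 members that hold them, by distance from the annotated start in bases, with members ordered by their log2 ratio of FPKM + 1 (anti-CD40 over IgG, in brackets). Red bars are head-to-head pairs and blue bars tail-to-tail pairs. Where a member has several windows, the one with the most pairs is drawn. Bars of both colours meet in Hspe1, Hspd1, Dnajb6 and Hsph1, and the members run from 0.83 (Hspe1) to -0.32 (Hspb6).

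Of the 72 members, 53 reached 1 FPKM in at least 1 library and 19 did not. Among the 53, 36 had a log2 ratio of FPKM + 1 (anti-CD40 over IgG) above 0.12, the median of the 9591 genes that reached 1 FPKM, of which 50% lie above it by construction. The median member stood at 0.21, or 0.08 above that of all genes. Regardless of this shift, 45 members were higher and 8 lower under anti-CD40, while 67.8% of all genes were higher. At 1.5-fold on this scale, 3 members were higher (Dnajc19, Hspe1 and Hspb11), against 2.68% of all genes, and 0 were lower, against 2.15%. At 2-fold, 0 members were higher, against 0.25% of all genes, and 0 were lower, against 0.313%.

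The counting interval of the ratio lay above 1 for 25 of the 53 members, against 39.9% of the 9321 genes with a transcript length, and below 1 for 3 (Dnajc17, Hsp90aa1 and Dnajb14), against 15.4%. The median FPKM ratio of all genes was itself 1.11. All 72 members together summed to 1865 FPKM under anti-CD40 and 1600 under IgG, which is 0.352% and 0.292% of the column sums. Because 5 members (Dnajb13, Dnajb4, Dnajc27, Hspa2 and Hspa4l) passed 1 FPKM through the anti-CD40 library alone, the counts lean towards higher. Among the 48 members at 1 FPKM in both libraries, 31 lay above that median, as did 49.5% of the 9101 such genes. The lean of all genes depends on the scaling: 257 were 1.5-fold higher and 206 lower as deposited, 333 and 158 with equal column sums, 144 and 362 with equal upper quartiles, and 118 and 406 after centring on the median.

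The steps of low values imply about 6.16 gigabases of aligned sequence under anti-CD40 and 5.58 under IgG. The median counted member then rested on an estimated 367 fragments under anti-CD40 (range 55 to 33400) and 315 under IgG (29 to 28639). All 8 macrophage markers exceeded 1 FPKM, from 4.37 (Mertk) to 13423 (Lyz2) under anti-CD40 and from 3.83 to 11326 under IgG. Of 21 markers of T cells, B cells, neutrophils, erythroid cells, fibroblasts and dendritic cells, Cd3e, Cd3d, Cd3g, Ly6g, S100a9 and Flt3 were listed at 0 in both libraries, and the 21 summed to 4.94 FPKM under anti-CD40 and 5.06 under IgG. The 2 that reached 1 FPKM were S100a8, at 1.82 under anti-CD40 and 1.11 under IgG, and Hba-a1, at 1.18 under anti-CD40 and 2.91 under IgG. By cell type, fibroblast markers summed to 1.18 FPKM under anti-CD40 and 0.504 under IgG (Col1a1 0.406 and 0.032), B cell markers to 0.617 and 0.267, and erythroid markers to 1.21 and 3.13. Their part in the members' values was not tested. In bulk RNA, fewer cells with a transcript and less of it per cell cannot be told apart.

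**Figure D2:**
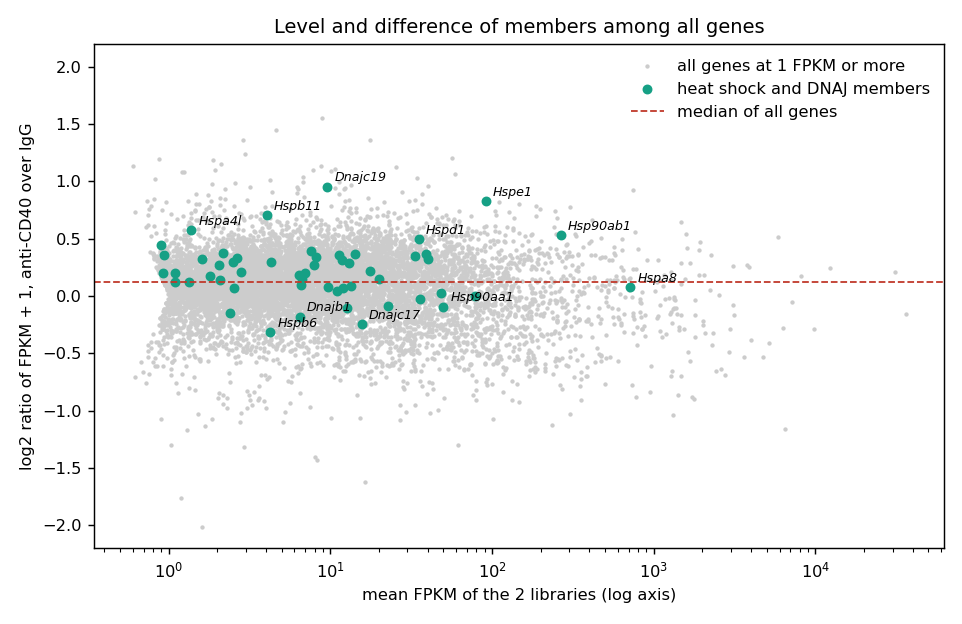
Mean FPKM of both libraries (log axis) against the log2 ratio of FPKM + 1, anti-CD40 over IgG, for the 9591 genes at 1 FPKM or more (grey, 4 of them beyond the drawn range) and the 53 members among them (green). The dashed line is the median of all genes, 0.12, and Dnajc19 (0.95), Hspe1 (0.83) and Hspb11 (0.70) are the highest members.

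Neither heat shock factor was 1.5-fold apart. Hsf1, the main activator of the heat shock response, had 11.2 FPKM under anti-CD40 and 10.8 under IgG (ratio 1.04, counting interval 0.904 to 1.19). Its log2 ratio of 0.05 lies below the median of all genes and turns to -0.08 after centring. Hsf2, which can pair with HSF1, had 2.35 FPKM under anti-CD40 and 1.77 under IgG (ratio 1.33, counting interval 0.992 to 1.75). Both intervals include 1.

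The ratios of the classic heat-inducible members lay on both sides of 1. Hspa1a, one of the neighbouring and nearly identical genes of inducible HSP70, had 1.19 FPKM under anti-CD40 and 1.01 under IgG (ratio 1.18, counting interval 0.809 to 1.68). Its twin Hspa1b had 0.598 FPKM under anti-CD40 and 0.704 under IgG (ratio 0.850, counting interval 0.506 to 1.36). Reads shared by copies this close can be split either way, and their sum was 1.79 FPKM under anti-CD40 and 1.71 under IgG. Both stayed near 1 FPKM. Hspb1, the small heat shock protein HSP25, was lower still, with 0.173 FPKM under anti-CD40 and 0.301 under IgG. Dnajb1, an inducible HSP70 cochaperone, had 5.99 FPKM under anti-CD40 and 6.93 under IgG (ratio 0.865, counting interval 0.746 to 1.001). Hsp90aa1, the inducible HSP90, had 48.3 FPKM under anti-CD40 and 51.5 under IgG (ratio 0.938, counting interval 0.892 to 0.985). Both ratios were below 1, whereas the inducible HSP110 gene Hsph1 was higher, with 7.55 FPKM under anti-CD40 and 6.41 under IgG (ratio 1.18, counting interval 1.03 to 1.34).

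Constitutive HSP70 made up most of the network's HSP70 transcripts. Hspa8, the housekeeping HSC70 (chr9:40801276-40805202), had 737 FPKM under anti-CD40 and 698 under IgG (ratio 1.06, counting interval 1.04 to 1.07). It ranked 108 among all genes under anti-CD40 and 114 under IgG, and formed 92.5% and 93.4% of the summed HSP70 levels of the members. That sum leaves out Hspa5 (BiP), which is outside the member rule, at 158 FPKM under anti-CD40 and 135 under IgG. The log2 ratio of Hspa8, 0.08, lies below the median of all genes and turns to -0.04 after centring. Hspa9, the mitochondrial HSP70 (mortalin), had 44.4 FPKM under anti-CD40 and 35.4 under IgG (ratio 1.26, counting interval 1.19 to 1.33). The level of Hspa8 was 16.6 times that of Hspa9 under anti-CD40 and 19.7 times under IgG.

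The other HSP70 members were lower in level. Hspa14, which works at the ribosome with Dnajc2, had 10.04 FPKM under anti-CD40 and 9.43 under IgG (ratio 1.07). Hspa13 had 1.98 FPKM under anti-CD40 and 1.64 under IgG. Hspa2, best known from the testis, had 1.06 FPKM under anti-CD40 and 0.795 under IgG. These 3 lay between 1.07-fold and 1.33-fold. Hspa1l, Hspa12a and Hspa12b stayed under 1 FPKM, at 0.795, 0.004 and 0.068 under anti-CD40 and 0.671, 0.033 and 0.075 under IgG. Of the 6 HSP70 members counted, 4 exceeded the all-gene median. Among these 4, Hspa2 passed 1 FPKM through the anti-CD40 library alone. Hspa1a, at 0.126, lay barely above the median of 0.122.

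The HSP110 exchange factors, which free HSP70 of ADP, lay above the median in all 3 cases. Hspa4, the most abundant, had 18.96 FPKM under anti-CD40 and 16.2 under IgG (ratio 1.17, counting interval 1.09 to 1.26). Hspa4l, a close relative, had 1.85 FPKM under anti-CD40 and 0.913 under IgG (ratio 2.02, counting interval 1.68 to 2.45). It passed 1 FPKM through the anti-CD40 library alone. Its difference on the log2(FPKM + 1) scale was 0.57, just short of 1.5-fold, because the pseudocount weighs on low values.

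**Figure D3:**
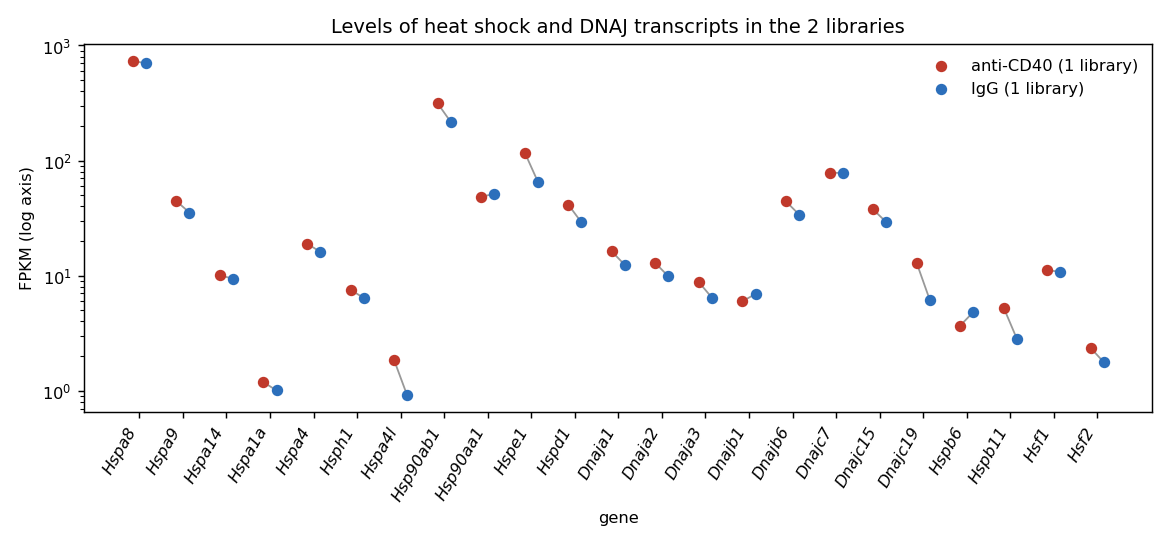
FPKM (log axis) of 23 members in the anti-CD40 library (red, left of each pair) and the IgG library (blue, right), 1 library each, joined by a grey line for each gene. Hspa8 stands at 737 and 698 FPKM and Hsp90ab1 at 314 and 217, and the steepest lines are those of Dnajc19, Hspa4l, Hspb11 and Hspe1.

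The HSP90 pair split. Hsp90ab1, the constitutive gene (chr17:45567778-45573261), had 314 FPKM under anti-CD40 and 217 under IgG (ratio 1.45, counting interval 1.41 to 1.48). Its level was 6.50 times that of Hsp90aa1 under anti-CD40 and 4.21 times under IgG, a comparison within each library that no scaling alters. Hsp90aa1 itself stood at -0.09 on the log2 scale as deposited, -0.04 with equal column sums and -0.21 after centring. Both genes summed to 362 FPKM under anti-CD40 and 269 under IgG.

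Both genes of the mitochondrial chaperonin were higher. Hspe1, the lid HSP10 (chr1:55088148-55091317), had 118 FPKM under anti-CD40 and 65.7 under IgG (ratio 1.79, counting interval 1.65 to 1.93). Hspd1, the barrel HSP60 (chr1:55077833-55088243), had 41.4 FPKM under anti-CD40 and 29.1 under IgG (ratio 1.42, counting interval 1.33 to 1.53). They start from the shared promoter region shown above, yet differed by unequal factors: the level of Hspe1 was 2.84 times that of Hspd1 under anti-CD40 and 2.26 times under IgG. Their annotated spans overlap by 96 bases, and RefSeq names 6 pseudogenes of Hspe1 and 5 of Hspd1. How reads shared with those copies were counted is unknown, so both levels are uncertain to that extent.

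The DNAJ genes listed here as mitochondrial had a median log2 ratio of 0.35, with 4 of 5 above the median of all genes. The lists by site, here and for the endoplasmic reticulum, are partial. They leave 32 DNAJ genes unsorted, of which 23 were counted and 17 lay above that median. Among these 17, Dnajb4, Dnajb13 and Dnajc27 passed 1 FPKM through the anti-CD40 library alone. Some of the unsorted genes may belong to either site, so the 2 lists do not compare whole compartments. Dnajc19, a subunit of the import motor that works with mortalin (chr3:34057280-34081354), had 12.9 FPKM under anti-CD40 and 6.19 under IgG (ratio 2.09, counting interval 1.70 to 2.58). On the log2(FPKM + 1) scale its difference of 0.95 stayed under 2-fold. Its annotated span overlaps Fxr1 by 12701 bases, and Fxr1 had 14.4 FPKM under anti-CD40 and 10.8 under IgG. The part of reads shared with Fxr1 was not tested. Dnaja3, a type A protein of the mitochondrial matrix, had 8.77 FPKM under anti-CD40 and 6.43 under IgG (ratio 1.37, counting interval 1.18 to 1.58). Dnajc15, an inner-membrane relative of Dnajc19, had 37.6 FPKM under anti-CD40 and 29.3 under IgG (ratio 1.28). Dnajc30 had 20.96 FPKM under anti-CD40 and 18.8 under IgG. Dnajc11, linked to cristae organisation, had 13.8 FPKM under anti-CD40 and 12.98 under IgG and was the 1 of the 5 below the median.

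The DNAJ genes listed here for the endoplasmic reticulum had a median log2 ratio of 0.08, with 3 of 8 above the median of all genes. Dnajb11, a lumenal partner of BiP and the most abundant of them, had 48.9 FPKM under anti-CD40 and 47.9 under IgG (ratio 1.02, counting interval 0.955 to 1.09). Dnajb14, a membrane cochaperone of degradation, had 21.96 FPKM under anti-CD40 and 23.3 under IgG (ratio 0.941, counting interval 0.901 to 0.982). Neither was higher by more than 1.02-fold. Dnajb9, a regulator of the stress sensor IRE1, had 2.57 FPKM under anti-CD40 and 1.76 under IgG (ratio 1.46, counting interval 1.10 to 1.97). Dnajc10, a disulphide reductase, had 8.73 FPKM under anti-CD40 and 7.07 under IgG (ratio 1.23, counting interval 1.10 to 1.38). Dnajb12, the membrane relative of Dnajb14, had 6.91 FPKM under anti-CD40 and 5.97 under IgG. These 3 were the ones above the median. Dnajc3 had 6.88 FPKM under anti-CD40 and 6.35 under IgG. Dnajc1 had 2.63 FPKM under anti-CD40 and 2.46 under IgG. Dnajc18 had 2.24 FPKM under anti-CD40 and 2.58 under IgG, the lowest log2 ratio of the 8 at -0.15. Of the ER chaperones outside the member rule, Hspa5 (BiP) had 158 FPKM under anti-CD40 and 135 under IgG and Hsp90b1 had 123 FPKM under anti-CD40 and 103 under IgG, with log2 ratios of 0.23 and 0.25.

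Type A cochaperones of the cytosol, general partners of HSC70, were both higher. Dnaja1 had 16.2 FPKM under anti-CD40 and 12.4 under IgG (ratio 1.31, counting interval 1.21 to 1.42). Dnaja2 had 12.9 FPKM under anti-CD40 and 9.85 under IgG (ratio 1.31, counting interval 1.17 to 1.46). Their ratios differ by less than their counting intervals. With Dnaja3, the 3 counted type A genes span 0.35 to 0.40 on the log2 scale, and Dnaja4 was low at 0.137 FPKM under anti-CD40 and 0.056 under IgG.

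Type B genes were mixed, with 7 of 10 counted above the median of all genes. Of these 7, Dnajb4 and Dnajb13 passed 1 FPKM through the anti-CD40 library alone. Dnajb6, which keeps aggregation-prone proteins soluble, had 44.2 FPKM under anti-CD40 and 33.95 under IgG (ratio 1.30, counting interval 1.20 to 1.41). Dnajb4, a relative of Dnajb1, had 1.18 FPKM under anti-CD40 and 0.700 under IgG (ratio 1.69, counting interval 1.09 to 2.69). Dnajb5, another relative, had 4.82 FPKM under anti-CD40 and 3.73 under IgG (ratio 1.29, counting interval 1.09 to 1.54). All 3 were higher, while Dnajb1 was the lowest of the type B genes at -0.18. Dnajb13, known from sperm tails, had 1.18 FPKM under anti-CD40 and 0.604 under IgG (ratio 1.96, counting interval 1.25 to 3.17). Dnajb2 had 7.10 FPKM under anti-CD40 and 6.28 under IgG.

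Type C genes share only the J domain, and 14 of 23 counted exceeded the all-gene median. Of these 14, Dnajc27 passed 1 FPKM through the anti-CD40 library alone. Dnajc7, which binds both HSP70 and HSP90, was the most abundant DNAJ transcript and had 78.3 FPKM under anti-CD40 and 78.2 under IgG (ratio 1.001, counting interval 0.956 to 1.05). Its annotated span overlaps Cnp by 9058 bases, and Cnp had 16.4 FPKM under anti-CD40 and 15.6 under IgG. Dnajc8, linked to splicing, had 35.8 FPKM under anti-CD40 and 36.4 under IgG (ratio 0.982). Dnajc17 had 14.2 FPKM under anti-CD40 and 16.99 under IgG (ratio 0.835, counting interval 0.712 to 0.984). These 3 were level or lower. Dnajc9, a histone chaperone, had 9.23 FPKM under anti-CD40 and 7.06 under IgG (ratio 1.31, counting interval 1.09 to 1.56). Dnajc5, the cysteine string protein of secretory vesicles, had 14.4 FPKM under anti-CD40 and 11.6 under IgG (ratio 1.24, counting interval 1.13 to 1.36). Dnajc14 had 13.3 FPKM under anti-CD40 and 10.5 under IgG (ratio 1.27, counting interval 1.16 to 1.39). These 3 were higher, and the neighbour Ormdl2, which overlaps Dnajc14 by 1547 bases, had 6.44 FPKM under anti-CD40 and 4.33 under IgG. Dnajc2 had 12.2 FPKM under anti-CD40 and 11.6 under IgG (ratio 1.06). Dnajc4 had 12.3 FPKM under anti-CD40 and 13.2 under IgG (ratio 0.926).

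The remaining counted type C genes, Dnajc12, Dnajc13, Dnajc16, Dnajc21, Dnajc24, Dnajc25 and Dnajc27, ranged from 1.24 to 3.09 FPKM under anti-CD40 and from 0.948 to 2.52 under IgG. Their ratios ran from 1.16 (Dnajc13) to 1.44 (Dnajc16), beside the 67.8% of all genes that were higher. The counting interval included 1 for Dnajc13, Dnajc21, Dnajc24, Dnajc25 and Dnajc27, and Dnajc27 reached 1 FPKM under anti-CD40 alone. After centring, 9 counted members turn from slightly higher to slightly lower: Dnajc1, Dnajc2, Dnajc3, Dnajc7, Dnajc11, Dnajb11, Hspa8, Hspa14 and Hsf1. Equal upper quartiles were tried on 31 members, and of these Dnajc2, Dnajc7, Dnajb11, Hspa8, Hspa14 and Hsf1 turn there too. With equal column sums Dnajc8 turns to 0.02, and with length and GC trends removed Dnajc4 turns to 0.08 and Dnajc7 to -0.02.

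**Figure D4:**
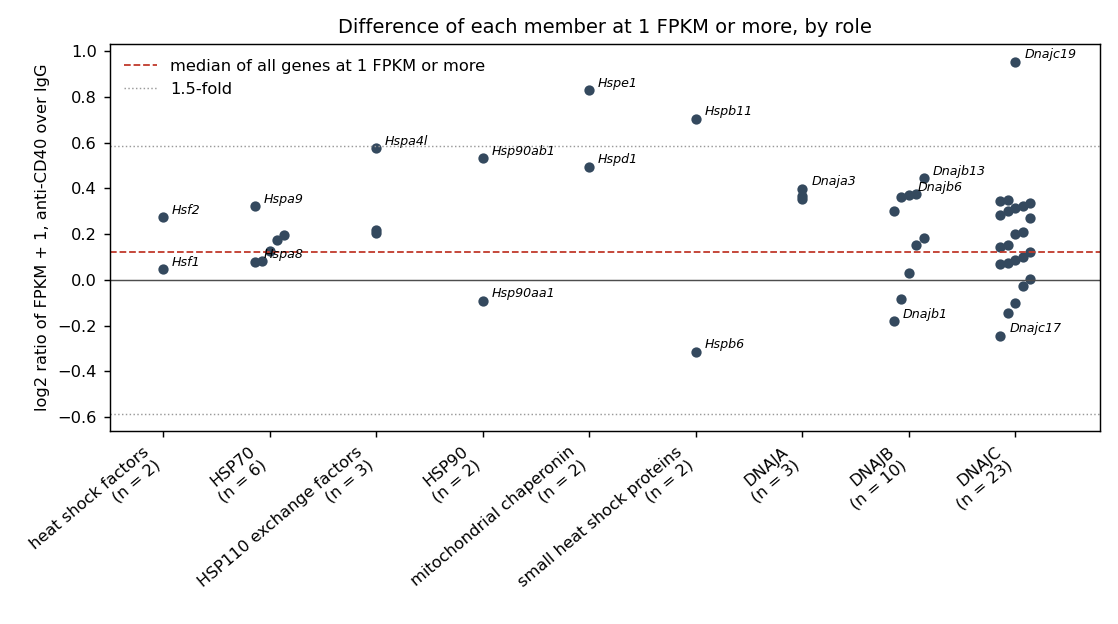
Log2 ratio of FPKM + 1, anti-CD40 over IgG, for the 53 members at 1 FPKM or more, 1 point per gene, by role group with the number of genes in brackets. The dashed red line is the median of all genes (0.12) and the dotted lines mark 1.5-fold. Dnajc19, Hspe1 and Hspb11 lie above the upper dotted line and 0 members lie below the lower one.

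Small heat shock proteins, holdases that need no ATP, were mostly low. Of 8 genes, 6 stayed under 1 FPKM in both libraries. Hspb6 (HSP20) had 3.68 FPKM under anti-CD40 and 4.83 under IgG (ratio 0.763, counting interval 0.583 to 1.01), and its log2 ratio of -0.32 was the lowest of all counted members. Hspb11 had 5.25 FPKM under anti-CD40 and 2.84 under IgG (ratio 1.85, counting interval 1.21 to 2.94), resting on an estimated 66 and 32 fragments. Despite its symbol, Hspb11 encodes IFT25, a subunit of the transport machinery of cilia. Hspb7 had 0.078 FPKM under anti-CD40 and 0.153 under IgG. Hspb9 had 0.452 FPKM under anti-CD40 and 0.585 under IgG. Hspb8 stood at 0.106 FPKM under anti-CD40 and was listed at 0 under IgG.

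The 19 members under 1 FPKM reached at most 0.795 FPKM (Hspa1l), and 5 of them were listed at 0 in both libraries (Dnajb8, Dnajc5b, Dnajc5g, Hspb2 and Hspb3). Dnajb7 was listed at 0 under anti-CD40 and stood at 0.072 FPKM under IgG. Dnajc6, the clathrin uncoating factor auxilin, stood at 0.008 FPKM under anti-CD40 and was listed at 0 under IgG. A listing at 0 can be a failed estimate and does not show that a gene is off. Dnajb3 had 0.063 FPKM under anti-CD40 and 0.089 under IgG. Dnajc22 had 0.057 FPKM under anti-CD40 and 0.054 under IgG. Dnajc28 had 0.446 FPKM under anti-CD40 and 0.302 under IgG. The first 2 rest on an estimated 1 or 2 fragments in each library, too few for a comparison.

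The 3 members past 1.5-fold have short transcripts: Dnajc19 has 1177 bases, Hspe1 774 and Hspb11 608. All genes under 1000 bases had a median log2 ratio of 0.01, and those of 2000 bases or more 0.13. The 4 members under 1000 bases (Hspb11, Hspe1, Dnajc4 and Dnajc24) had a median of 0.50. With the trends on transcript length and GC content removed, Dnajc19, Hspe1 and Hspb11 stood at 0.94, 0.91 and 0.81. In that version 3 members were again 1.5-fold higher, against 3.4% of all genes, and 0 were lower, against 1.41%.

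**Figure D5:**
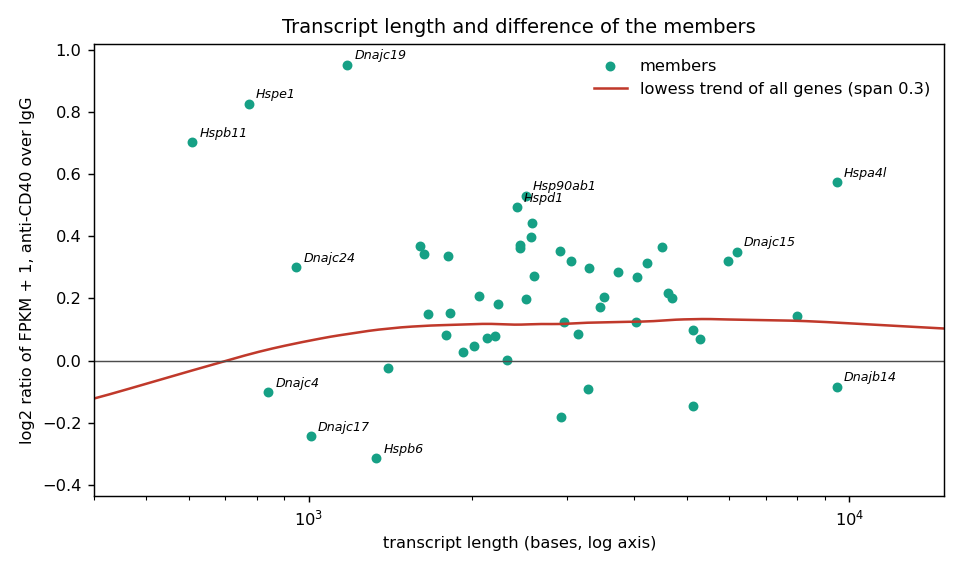
Transcript length (bases, log axis) against the log2 ratio of FPKM + 1, anti-CD40 over IgG, for the 53 members at 1 FPKM or more (green), with the lowess trend of all genes in red. The trend dips for short transcripts, and Hspb11, Hspe1 and Dnajc19 lie above it at 608, 774 and 1177 bases.

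Members with and without heat shock element letters overlapped in their differences. Of the 10 counted members with the letters shown above in at least 1 promoter window, 9 exceeded the all-gene median. Their own median log2 ratio was 0.32. Of the 31 counted members with the letters in no window, 21 exceeded the all-gene median, and their own median was 0.21. Hspe1, Hspd1, Dnajb6 and Dnaja1 were among the 10, and so was Hspb6, the lowest of all. Among the 10, Dnajb4 and Dnajc27 passed 1 FPKM through the anti-CD40 library alone, as did Dnajb13, Hspa2 and Hspa4l among the 31. Hspa1a, at 0.126, lay barely above the all-gene median of 0.122. Hspd1 and Hspe1, both among the 10, share 285 bases of promoter window. Counted members with no promoter at hand, Hsp90aa1, Hsp90ab1, Hspa8 and Hspa9 among them, are in neither group. The difference between both groups was not tested.

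Partner genes outside the member rule were compared by list. Among 14 HSP90 cochaperones, 5 exceeded the all-gene median and 0 were 1.5-fold apart, with a median log2 ratio of 0.08. Ppp5c, a phosphatase, had 18.9 FPKM under anti-CD40 and 15.6 under IgG. Ppid, a prolyl isomerase, had 6.90 FPKM under anti-CD40 and 5.70 under IgG. These 2 were the highest on the log2(FPKM + 1) scale, whereas Fkbp5, an immunophilin at a low level, had the highest FPKM ratio at 1.33. Cdc37, which brings kinases to HSP90, had 141 FPKM under anti-CD40 and 196 under IgG (ratio 0.720). Sugt1 had 17.4 FPKM under anti-CD40 and 18.4 under IgG. Cdc37 was thus lower and Hsp90ab1 higher in the anti-CD40 library.

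Exchange factors of other families had 4 of 9 counted genes above the all-gene median. Bag1, which links HSP70 to the proteasome, had 170.1 FPKM under anti-CD40 and 257 under IgG (ratio 0.663, counting interval 0.638 to 0.689) and was the 1 gene of the list lower by 1.5-fold. Sil1, the exchange factor of BiP, had 26.9 FPKM under anti-CD40 and 36.3 under IgG. The highest 2 on the log2(FPKM + 1) scale were Bag3 and Grpel1, although Grpel2 had a higher FPKM ratio (1.20) than Grpel1 (1.16). Bag3, a factor of aggregate clearance, had 13.7 FPKM under anti-CD40 and 11.4 under IgG. Grpel1, the exchange factor of mortalin, had 6.08 FPKM under anti-CD40 and 5.23 under IgG.

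TRiC, the cytosolic chaperonin that folds actin and tubulin, had 5 of 8 subunits above the all-gene median and log2 ratios from -0.20 (Cct3) to 0.41 (Cct6a). Cct6a had 26.3 FPKM under anti-CD40 and 19.5 under IgG. Cct2 had 65.7 FPKM under anti-CD40 and 51.6 under IgG. Both were higher, and 2 subunits were lower as deposited. Cct3 had 80.97 FPKM under anti-CD40 and 93.3 under IgG. Cct7 had 65.2 FPKM under anti-CD40 and 66.9 under IgG. Prefoldin, which hands clients to TRiC, had 2 of 6 subunits above the all-gene median. Pfdn4 had 5.96 FPKM under anti-CD40 and 3.41 under IgG (ratio 1.75, counting interval 1.23 to 2.48). Vbp1 had 5.93 FPKM under anti-CD40 and 5.14 under IgG. The other 4 subunits were lower as deposited. Pfdn6 had 73.2 FPKM under anti-CD40 and 86.7 under IgG. Pfdn5 had 559.7 FPKM under anti-CD40 and 635 under IgG.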

How the data were processed

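Per the labels' protocols, each TruSeq RNA library was built from 1.3 ug of TRIzol-isolated RNA. The submitters' processing notes name HISAT2 2.1.0, StringTie and build mm10. Which annotation, strand setting and filters were applied is not given in the sources used here. What the authors deposited is 1 table with a value per gene for 2 libraries, read here as FPKM because StringTie is named and the column sums (529104 with anti-CD40, 547362 with IgG) differ; the header names no unit. Without a strand setting, overlapping genes cannot be told apart. The annotated spans of 10 counted members overlap another gene that reached 1 FPKM. They are Dnajb4, Dnajc1, Dnajc7, Dnajc14, Dnajc17, Dnajc19, Dnajc30, Hspb6, Hspd1 and Hspe1. The part of shared reads in their levels was not tested.

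Values were compared as the log2 ratio of FPKM + 1, which understates the difference of low genes; ratios in the text divide the FPKM values themselves. Genes were counted at 1 FPKM or more in either library, and at 1.5-fold and 2-fold. Depth came from genes with 1 transcript and 1 exon, whose FPKM times RefSeq length should be whole multiples of a step: 77.6% of 58 low genes with anti-CD40 and 84.6% of 26 with IgG were whole within 0.05 steps. A step was taken as 0.5 aligned bases and a fragment as 300 bases. Exact conditional binomial 95% intervals of the folds rest on that reading, on FPKM being the unit, and on the median length of each gene's RefSeq-linked transcripts in GENCODE M21; they say nothing of the spread between cultures. RefSeq on GRCm38.p6 held all 72 symbols and gave coordinates and promoters. Tools were Python 3.11.15, pandas 2.3.3, scipy 1.17.1 and statsmodels 0.14.6 (lowess, span 0.3), and the count and step routines were tested on simulated data.

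Members, role groups and partner lists were chosen with earlier results of these data known. Values are given for Hsf1, Hsf2, the core chaperones, the 12 highest and 12 lowest ratios among members at 5 FPKM or more, small heat shock proteins at 1 FPKM or more, and the 2 highest and 2 lowest of each partner list; other members were named to account for all. Alternatives were pseudocounts of 0.1 and 5 FPKM, equal column sums, equal upper quartiles, centring on the median, removal of length and GC trends, no filter, a filter at 5 FPKM, and Hspa1a and Hspa1b summed.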

Additional observations from a re-analysis of the deposited data

How the results depend on the processing

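No paired analysis was possible because each group holds 1 library, and for the same reason no library could be left out. The count of members 1.5-fold lower was 0 under every alternative run. Of all genes, 102 (pseudocount of 5 FPKM) to 406 (centring on the median) were 1.5-fold lower. The counts above the median of all genes and 1.5-fold higher stayed within 1.5 times those reported, with these exceptions. With a pseudocount of 0.1 FPKM, 6 members were 1.5-fold higher, since Hspa4l, Dnajb4 and Dnajb13 then pass. Those 3 passed 1 FPKM through the anti-CD40 library alone. Of all 9591 genes, 508 were 1.5-fold higher at that pseudocount, against 257 in the main setting. With a filter at 5 FPKM, 20 of 34 members lay above the median, a smaller share than the 36 of 53 at 1 FPKM. The lean above the median was thus weaker among members at 5 FPKM or more. Without a filter, the median of the members lay 0.13 above that of all 34714 genes, of which 9591 reach 1 FPKM. After centring on the median 2 members stayed 1.5-fold higher, beside 118 of all 9591 genes. With a pseudocount of 5 FPKM it was also 2, beside 81 of all 9591 genes. Of 31 named members, 6 changed sign after centring and 6 with equal upper quartiles, all from higher to lower, 1 with equal column sums and 2 with length and GC trends removed. With 1 library per group, the treatment and a difference between cultures cannot be told apart.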
